A study of Danio rerio with 25 samples.

Results

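Chromatin accessibility of the adult zebrafish epicardium was compared between hearts that had been frozen locally (cryoinjury) and hearts that had undergone sham surgery. The members were the ATAC-seq libraries whose labels give adult stage and either treatment, which made 6 of the 25 libraries of the series, 4 after cryoinjury and 2 after sham surgery. All 6 came from adult fish that carried the tcf21:BirA-mCherry reporter, were purified by fluorescence-activated cell sorting and were taken 3 days after surgery. The reporter is driven by tcf21 sequences, so the sort captured cells in which that transgene was active. Both treatments shared the transgene, and no library came from unoperated adults. The labels give neither the fish strain nor the number of hearts in a library, and they do not say that libraries came from separate animals. The p-values therefore measure spread between libraries only, which the main edgeR test estimated from all 14 ATAC libraries, larval ones included. The other 8 ATAC libraries were larval, from hearts at 5 days post fertilization, and were used here to class peaks. They comprised epicardium and non-epicardium sorted with tcf21:H2B-Dendra2 or with tbx18:myr-Citrine, 2 libraries of each kind. RNA of the adult epicardium came from 3 cryoinjury and 2 sham libraries made by nuclear pulldown.

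The epicardium is the mesothelial sheet around the heart. After injury to the zebrafish heart it is known to reactivate developmental genes, proliferate, spread over the wound and give rise to fibroblast-like and mural cells, while releasing signals to the muscle and vessels below. In ATAC-seq the Tn5 transposase inserts adapters into open DNA, so that reads gather at promoters, which are mostly open in many cell types, and at enhancers, whose opening is usually more specific to a cell type and state.

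Accessibility was counted by the authors in 61954 peaks shared by all libraries. The cryoinjury libraries held 1070024, 2000665, 2611588 and 3817831 counts in peaks and the sham libraries 2622189 and 1314540. A level of 3 counts therefore equalled 0.617 to 2.65 CPM (counts scaled to a common library total by TMM), and a peak far below that level in a library was not distinguishable from closed at this depth. Between pairs of libraries, Pearson's r of the log2 CPM over tested peaks was 0.680 to 0.804 for the 6 pairs of cryoinjury libraries, 0.763 for the sham pair and 0.688 to 0.777 for the 8 pairs across treatments. The cross-treatment pairs thus lay within the range of the cryoinjury pairs, but cryoinjury library 1 set the low end of that range. It held the fewest counts and had r of 0.708, 0.680 and 0.685 with cryoinjury libraries 2, 3 and 4. Among libraries 2, 3 and 4, r was 0.784 to 0.804, above every cross-treatment pair. Their own pairs with sham libraries had 0.715 to 0.777, a range that includes the sham pair. The part of depth and of treatment in these values was not tested. In sorted bulk cells, a smaller share of cells with an open peak and less opening in each cell cannot be told apart.

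After cryoinjury, 1 peak of the 61883 tested was called, at an adjusted p under 0.05 in the edgeR quasi-likelihood test (0.00162%), and it was lower. Without adjustment, 2012 peaks were higher (3.25%) and 2127 lower (3.44%) at p under 0.05, and DESeq2 called 10 peaks. Summed over all peaks annotated to a gene, 1 of 21976 genes was called (0.00455%), while 2.95% were higher and 3.49% lower at p under 0.05 without adjustment. Summed over promoter peaks, 2 of 11704 promoters were called (0.0171%). None of 1352 windows of 1 Mb was called by edgeR or DESeq2 (0%), while without adjustment 35 windows were higher (2.59%) and 58 lower (4.29%) at p under 0.05. The peaks and genes described hereafter are therefore those at the extremes of the comparison, and for most of them a difference between the treatments was not established.

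The called peak lay at the start of CR450686.2 (ENSDARG00000093787), a clone-named gene on chromosome 22 (chr22:8767551-8768051 of GRCz10, a promoter peak centred 129 bases upstream of the start). It measured 0.882, 0.436, 1.34 and 1.44 CPM after cryoinjury and 25.6 and 10.1 CPM after sham surgery. All 4 cryoinjury values were near the level of 3 counts, and the groups did not overlap. The log2 fold change was -3.99 (SE 0.54, edgeR adjusted p = 0.000168). Without the first sham library it was -3.12, and the call was lost. The call was also lost with the replicate number as a block in the fit, with or without the GC trend removed. In those fits cryoinjury libraries 3 and 4 did not inform the contrast, as no other group held their replicate numbers. The 5 tested peaks within 50 kb had a median log2 fold change of -0.08, and none of them was lower at an unadjusted p under 0.05. In the larval libraries the same peak ranged from 5.59 CPM to 34.9 CPM, with 5.59 CPM and 22.5 CPM in the 2 replicates of tcf21-sorted epicardium. The gene was listed at 0 in adult RNA.

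The second called promoter belonged to polr2f (ENSDARG00000036625), which encodes a subunit shared by the nuclear RNA polymerases. Its promoter peak lay at chr3:2041455-2041955, centred 165 bases upstream of the start. In promoter CPM, scaled to the counts of all promoters, it measured 91.8, 203, 161 and 195 after cryoinjury and 414 and 525 after sham surgery. Accessibility fell by 1.48 on the log2 scale (SE 0.27, edgeR adjusted p = 0.0213), with no overlap between the groups. Tested as a single peak among all peaks it was not called (log2 fold change -1.61, edgeR adjusted p = 0.162), nor was it by summed peaks (adjusted p = 0.230). The promoter call was lost without cryoinjury library 2 or 3 (adjusted p = 0.0508 and 0.0620), without sham library 1 or 2 (0.0843 and 0.315) and with the abundance trend removed (0.253). The 3 neighbouring peaks within 50 kb, all annotated to sox10, had a median log2 fold change of 0.00. In RNA, polr2f had a log2 fold change of 0.25 (unadjusted p = 0.662). The replicates of larval tcf21-sorted epicardium stood at 45.8 CPM and 146 CPM in this peak, a gap as wide as that between the adult treatments.

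**Figure D1:**
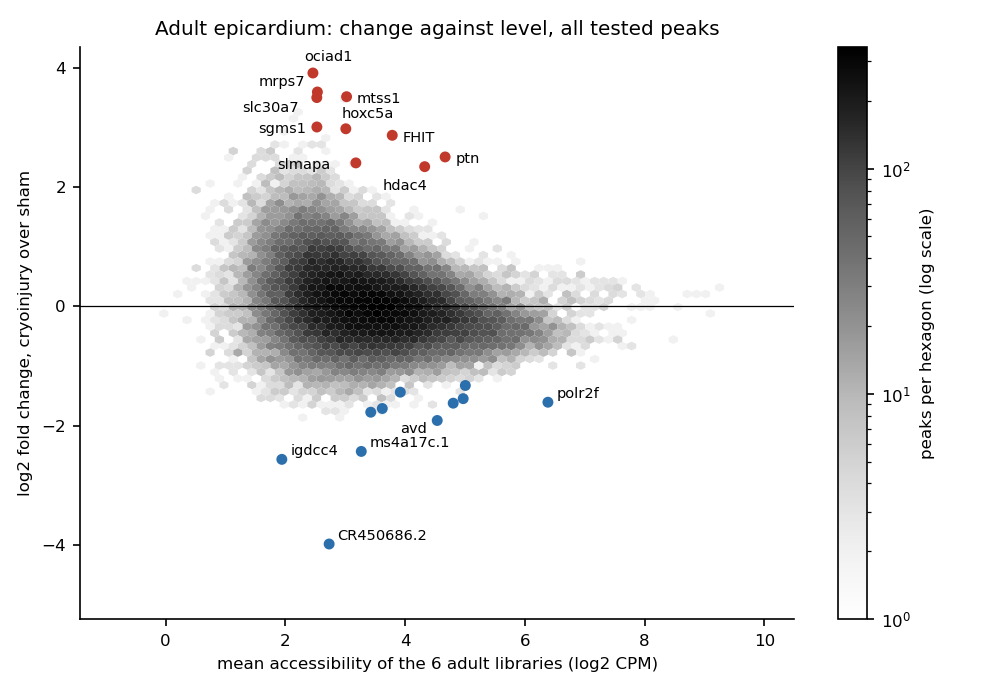
Log2 fold change of cryoinjury over sham (vertical axis) against the mean level of the 6 adult libraries in log2 CPM (horizontal axis) for all 61883 tested peaks, with peaks per hexagon on a log grey scale and the peaks described in the text as red (higher) and blue (lower) points. The CR450686.2 peak at -3.99 lies apart from the cloud, and the higher peaks sit at low to medium levels.

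By rule, the 10 named peaks with the lowest p in each direction were taken among peaks with no overlap between the treatments. Such peaks made up 7.68% of those tested on the higher side and 8.72% on the lower side. None of these 20 peaks passed the adjusted threshold in the edgeR test of all 14 ATAC libraries, and their direction was fixed by the choice. DESeq2's Wald test called 5 of them (avd, ptn, tmem184bb, igdcc4 and krt94, with adjusted p-values from 0.00834 to 0.0494). The edgeR fit of adult libraries alone also called 5 (avd, ptn, FHIT, ms4a17c.1 and hdac4).

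The peak with the most reads among the higher ones lay 42255 bases upstream of ptn, the gene of pleiotrophin, a secreted heparin-binding growth factor (chr4:1389052-1389552, intergenic). It measured 44.1, 27.5, 41.1 and 28.4 CPM after cryoinjury and 7.85 and 3.62 CPM after sham surgery. The gap between the groups was wider than the spread within either. The log2 fold change was 2.505 (SE 0.52, edgeR adjusted p = 0.128). A second peak starting 644 bases away measured 45.9, 26.6, 38.7 and 19.1 CPM against 5.46 CPM and 3.62 CPM, or 2.75 on the log2 scale (SE 0.62, adjusted p = 0.223). The other 7 peaks annotated to ptn had log2 fold changes from -0.58 to 1.09, so the difference sat in this adjacent pair. With the adult libraries fitted alone, both peaks of the pair were called (adjusted p = 0.00978 and 0.00971). In adult RNA, ptn had a log2 fold change of -2.32 (edgeR adjusted p = 0.285), the opposite sign.

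The other 9 higher peaks lay at genes of varied function. The hdac4 peak, in an intron of a class IIa histone deacetylase gene, measured 15.9, 29.2, 41.7 and 22.2 CPM after cryoinjury and 4.09 and 7.25 CPM after sham surgery. Its log2 fold change was 2.34 (SE 0.56, edgeR adjusted p = 0.292). The hoxc5a promoter, at a homeobox gene of positional identity, measured 20.3, 5.67, 9.02 and 10.9 CPM against 1.71 CPM and 0.725 CPM, or 2.98 on the log2 scale (SE 0.71, adjusted p = 0.292). Both peaks were low in every sham library. The nearest other peaks of the hox cluster, at hoxc10a, hoxc8a and hoxc4a, had log2 fold changes of 0.22, -0.27 and 0.94, none with an unadjusted p under 0.05. Intronic peaks of slmapa, which encodes a membrane-anchored protein of muscle and other cells, and of FHIT, which encodes a dinucleotide hydrolase, stood at 2.40 and 2.87 on the log2 scale (edgeR adjusted p = 0.232 and 0.329). The sham libraries held few counts in these peaks, 8 and 2 for slmapa and 11 and 1 for FHIT. For the hoxc5a promoter they held 5 and 1, where a deposited 1 stands for 1 read or none.

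Of these higher peaks, 5 rested on sham libraries with 3 or fewer counts each, so their ratio was computed from the summed counts, with an exact 95% interval for counting error only. The intronic ociad1 peak, at a gene named for its OCIA domain, held 82 counts after cryoinjury against 2, a ratio of 15.7 (4.20 to 132). The intronic mtss1 peak, at the gene of a membrane-bending actin regulator, held 121 against 4, a ratio of 11.6 (4.40 to 43.1). The intergenic slc30a7 peak, near the gene of a Golgi zinc transporter, gave 12.4 (4.104 to 61.0). The sgms1 promoter, of a sphingomyelin synthase, gave 8.41 (3.17 to 31.5), and the 5′ UTR peak of mrps7, of the mitochondrial ribosome, gave 15.4 (5.15 to 75.8). These intervals take each count as an independent read and do not include the variation between libraries. Since the peaks were chosen for low sham values, the intervals test nothing. A deposited 1 stands for 1 read or none, so the sham sum may be 0 for ociad1 and 2 in place of 3 for slc30a7 and mrps7, and the upper limits of these 3 peaks may lie higher.

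Among the lower peaks, the one with the lowest p lay 80734 bases from the start of avd, an avidin-like gene (chr10:21323762-21324262, intergenic). It measured 7.94, 16.1, 9.35 and 14.2 CPM after cryoinjury and 53.9 and 37.7 CPM after sham surgery. The gap between the groups was wider than the spread within either. The log2 fold change was -1.91 (SE 0.36, edgeR adjusted p = 0.0549). It was called by DESeq2, by the fit of adult libraries alone with and without the GC trend removed, with counts halved and with the GC trend removed, the lowest adjusted p being 0.00834. Leaving out single libraries gave adjusted p-values from 0.0927 to 0.643, and other alternatives went up to 0.829. In larvae this was an epicardial peak, at 69.3 CPM and 91.6 CPM in tcf21-sorted epicardium against 3.99 CPM and 1.17 CPM in non-epicardium.

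The pdgfd peak, 68568 bases from the start of the gene of a ligand of platelet-derived growth factor receptor beta (chr15:44978085-44978585), measured 2.65, 9.16, 5.01 and 6.17 CPM after cryoinjury and 20.5 and 21.02 CPM after sham surgery. The tmem184bb peak, at a transcript end of a transmembrane protein gene (chr3:3531495-3531995), measured 19.4, 11.3, 19.4 and 15.8 CPM against 45.7 CPM and 55.8 CPM. Neither pair of groups overlapped. Their log2 fold changes were -1.78 (SE 0.40) and -1.62 (SE 0.35), with edgeR adjusted p-values of 0.216 and 0.183. The krt94 peak, in the 5′ UTR of a keratin gene, measured 29.1, 17.9, 23.0 and 16.5 CPM against 51.9 CPM and 54.4 CPM (log2 fold change -1.33, adjusted p = 0.292). The PRKAR1B peak, near the gene of a regulatory subunit of protein kinase A, measured 25.6, 17.4, 20.03 and 13.99 CPM against 45.7 CPM and 65.2 CPM (log2 fold change -1.55, adjusted p = 0.257).

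The remaining lower peaks were intronic or exonic. They lay at igdcc4, of the immunoglobulin superfamily (-2.57), irf2bpl, a transcriptional co-regulator (-1.71), ms4a17c.1, a membrane-spanning protein (-2.43), and MAZ (1 of 2), a zinc finger factor (-1.44). Their edgeR adjusted p-values ran from 0.0972 to 0.292. Of the 10 lower peaks including polr2f, 5 were more open in larval tcf21-sorted epicardium than in non-epicardium (avd, tmem184bb, pdgfd, PRKAR1B and krt94), and the first 3 of them also with the tbx18 reporter. Of the 10 higher peaks, 0 were in that class, which held 4140 of the 61883 tested peaks (6.69%). These peaks were chosen as extremes, so the counts are a description. In adult RNA the genes of the named peaks went either way, and none was called by edgeR. The RNA sign was that of the peak for mtss1, slc30a7, hdac4, hoxc5a, sgms1, FHIT, igdcc4, krt94 and PRKAR1B. It was opposite for ptn, ociad1, slmapa, mrps7, polr2f, pdgfd, irf2bpl and MAZ (1 of 2). The lowest edgeR adjusted p was 0.0950, for PRKAR1B (log2 fold change -7.58).

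**Figure D2:**
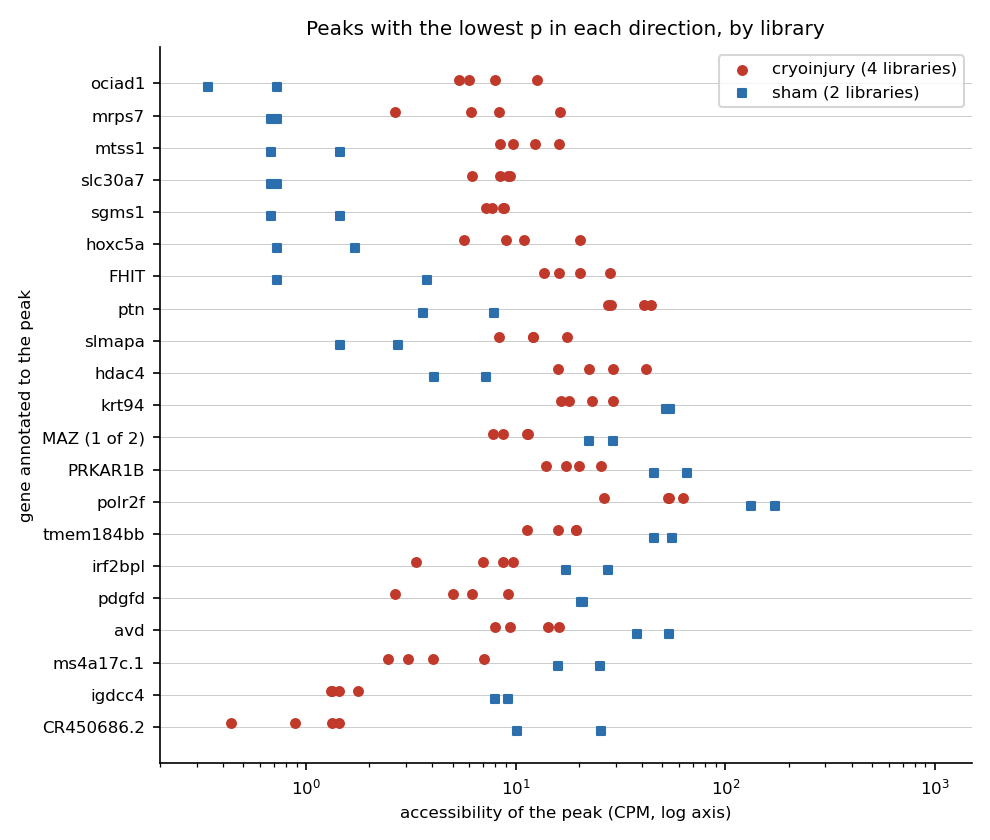
Accessibility in CPM (log axis) of the called peak and of the 10 higher and 10 lower peaks with the lowest p, each named by its annotated gene, with circles for the 4 cryoinjury libraries and squares for the 2 sham libraries. By the rule of choice the treatments do not overlap in any peak, and sham values of the higher peaks often lie near 1 CPM.

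Summing all peaks of a gene brought in further names. The sums of muc5a, a gel-forming mucin gene, were 73.1, 79.7, 80.5 and 85.4 CPM after cryoinjury and 39.0 and 14.7 CPM after sham surgery (log2 fold change 1.51, SE 0.32, edgeR adjusted p = 0.310). The sums of pcloa, which encodes a presynaptic scaffold protein, were 21.4, 23.6, 23.5 and 27.7 CPM against 9.66 CPM and 4.91 CPM (log2 fold change 1.65, adjusted p = 0.444). In both genes the cryoinjury libraries were close together and the sham libraries far apart. On the lower side stood chd, the gene of the bone morphogenetic protein antagonist chordin. Its sums were 13.4, 12.3, 14.01 and 11.2 CPM after cryoinjury and 32.99 and 39.998 CPM after sham surgery (log2 fold change -1.52, SE 0.37, adjusted p = 0.392). The sums of acss2l, an acetyl-CoA synthetase-like gene, were 26.8, 15.8, 38.8 and 23.3 CPM against 48.7 CPM and 77.9 CPM (log2 fold change -1.25, adjusted p = 0.311). In adult RNA, muc5a, pcloa, chd and acss2l had log2 fold changes of 5.03, 7.25, -0.95 and -1.53. Each had the sign of its sum, and none was called (edgeR adjusted p = 0.290, 0.0875, 0.812 and 0.344). No gene other than CR450686.2 was called by summed peaks in the edgeR test of all 14 libraries. DESeq2 called 4, among them polr2f and tmem184bb (adjusted p = 0.0295 for both), and the edgeR fit of adult libraries alone called 3, among them polr2f. Groups without overlap were found in 8.06% of genes on the higher side and 8.47% on the lower.

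Peaks were next classed by the larval libraries. These entered the adult contrast through the shared peak set, the filter, the scaling and the shared estimate of spread. A total of 2877 peaks were more open in larval epicardium than in non-epicardium with both reporters, each at an edgeR adjusted p under 0.05. After cryoinjury these peaks had a median log2 fold change of -0.24, against 0.01 over all tested peaks. At an unadjusted p under 0.05, 358 of them were lower (12.4%) and 60 higher (2.09%), against 3.44% and 3.25% of all peaks. By edgeR 0 were called, while DESeq2 called 2 of them, avd and tmem184bb. Conversely, 1965 peaks more open in larval non-epicardium with both reporters had a median of 0.24, with 172 higher (8.75%) and 25 lower (1.27%) and 0 called by edgeR or DESeq2. The 41981 peaks that differed with neither larval reporter had a median of 0.00. Under the 18 alternatives the epicardial median stayed between -0.27 and -0.12 and the non-epicardial median between 0.13 and 0.35, the epicardial value nearest to 0 arising without the first sham library.

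Per library, the larval epicardial peaks took 4.51%, 4.099%, 3.76% and 4.37% of counts after cryoinjury and 5.23% and 4.77% after sham surgery. The means were 4.19% ± 0.33 (SD, n = 4) and 5.00% ± 0.33 (n = 2), with no overlap. The larval non-epicardial peaks took 1.603%, 1.78%, 1.85% and 2.08% against 1.57% and 1.55%, again with no overlap, although the lowest cryoinjury library came close to the sham pair. The two-sided exact permutation p was 0.133 for either share, the smallest that 15 splits of 6 libraries allow. Adjusted over 15 such shares by the Benjamini-Hochberg method it was 0.545. The epicardial class had medians of -0.29 at 155 promoters and -0.23 at 2722 other peaks. The non-epicardial class had medians of 0.08 at 239 promoters and 0.26 at 1726 other peaks. The promoter value of that class was 0.0091 without the third cryoinjury library and 0.22 without the first sham library, and it ranged down to -0.017 over the 18 alternatives, so its direction was not stable.

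**Figure D3:**
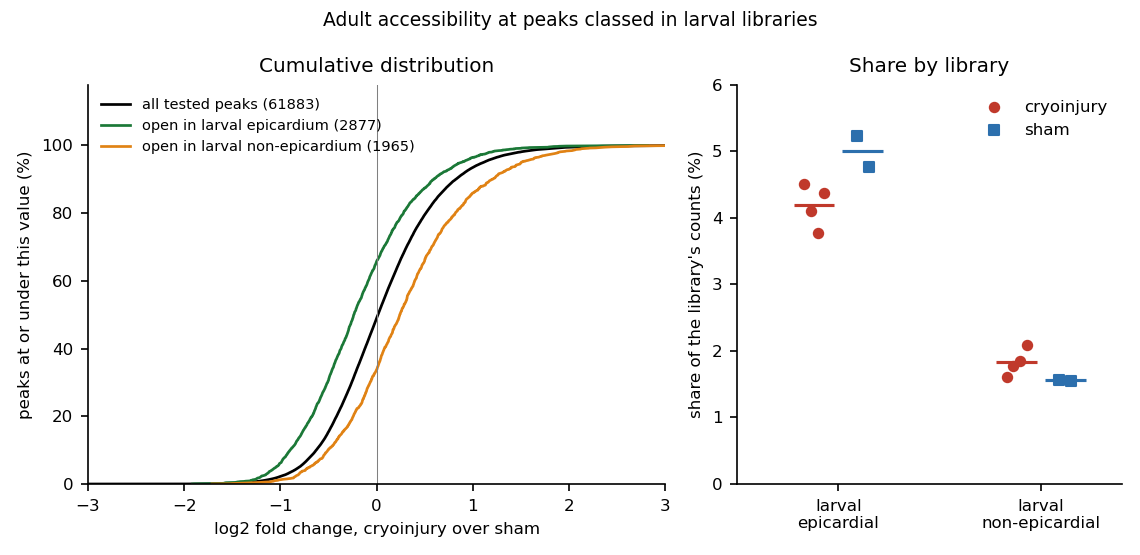
Left, cumulative distribution of the log2 fold change of cryoinjury over sham for all tested peaks and for peaks more open in larval epicardium or non-epicardium with both reporters; right, the share of each adult library's counts in either class, with group means as lines. The epicardial curve lies left of all peaks (median -0.24) and the non-epicardial curve right of them (0.24).

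The members of these classes with the lowest p were chosen after their values were seen and are given as examples. Beyond avd, tmem184bb and pdgfd, the lower epicardial peaks included an intronic peak of oaz2b, an inhibitor of polyamine synthesis. It measured 21.2, 27.0, 12.7 and 13.6 CPM after cryoinjury and 46.1 and 54.4 CPM after sham surgery (log2 fold change -1.46, edgeR adjusted p = 0.329). The intronic chd peak measured 13.2, 12.2, 14.4 and 10.5 CPM against 33.8 CPM and 41.3 CPM (log2 fold change -1.58, adjusted p = 0.349). Peaks near pros1, the anticoagulant protein S gene, znf346, a zinc finger gene, and mn1a, a transcriptional co-regulator gene, had log2 fold changes of -1.60, -1.58 and -1.30.

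Among the higher non-epicardial peaks, the slc25a18 promoter, of a mitochondrial glutamate carrier, measured 7.94, 10.03, 8.35 and 7.82 CPM after cryoinjury and 2.39 and 0.725 CPM after sham surgery (log2 fold change 2.22, edgeR adjusted p = 0.414). The promoter of kel, a blood group gene, measured 8.82, 22.2, 15.03 and 10.7 CPM against 4.78 CPM and 4.35 CPM (log2 fold change 1.63), and the promoter of HBZ, a globin gene, had a log2 fold change of 2.08. The blood list, which holds neither gene, had a median of -0.05 over 10 peaks. Its 4 tested promoters had a median of 0.78, with 3 positive values. At an unadjusted p under 0.05, 2 of them were higher and 0 lower, against 2.67% and 5.22% of all promoters. By summed peaks its 4 tested genes had a median of 0.29, with 2 positive values. A peak near gfi1ab, a factor of blood formation, held 63 counts against 3, a ratio of 8.02 (2.62 to 39.95), and it stood at 14.996 CPM in the first cryoinjury library and 3.67 CPM to 5.35 CPM in the others. An intronic peak of fgf5, a fibroblast growth factor gene, held 66 counts against 3 (ratio 8.41, 2.75 to 41.8). An intronic peak of smchd1, a chromatin silencing gene, held 71 against 3 (ratio 9.04, 2.97 to 44.9), and one of tgfbr2a, a receptor of TGF-beta, held 68 against 4 (ratio 6.496, 2.42 to 24.5). With a deposited 1 read as none, the sham sums of gfi1ab, fgf5 and smchd1 would be 2.

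The sorted cells carried open chromatin at epicardial marker genes in both treatments. Summed over its 8 peaks, tcf21, the bHLH factor whose regulatory sequence drives the reporter, measured 1221, 918, 719 and 934 CPM after cryoinjury and 862 and 1285 CPM after sham surgery. The groups overlapped (log2 fold change -0.18, SE 0.22, edgeR adjusted p = 0.943), and the sign turned without the second sham library (0.14). The largest of these peaks, 13176 bases from the annotated start, measured 445, 318, 234 and 268 CPM against 357 CPM and 560 CPM (log2 fold change -0.54, adjusted p = 0.808). The reporter construct may contribute reads from the tcf21 sequences it carries, and its extent is not given in the sources used here. The sums of aldh1a2, which makes retinoic acid, and of wt1b, a Wilms tumour factor, had log2 fold changes of -0.18 and 0.08 with overlapping groups. The sums of wt1a, the paralogue of wt1b, were 44.6, 52.5, 45.9 and 57.4 CPM against 68.6 CPM and 70.2 CPM, without overlap (log2 fold change -0.46, SE 0.22, adjusted p = 0.777).

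At the promoters of the 5 epicardial markers, tbx18 and wt1a were lower at an unadjusted p under 0.05, against 2.67% of all promoters higher and 5.22% lower at that level. In promoter CPM, tbx18, a T-box factor, measured 150, 126, 120 and 106 after cryoinjury and 158 and 244 after sham surgery (log2 fold change -0.68, SE 0.25, edgeR adjusted p = 0.471). The wt1a promoter measured 104, 120, 69.5 and 102 against 145 and 168 (log2 fold change -0.67, SE 0.26, adjusted p = 0.504). Neither promoter's groups overlapped, which held for 7.48% of all promoters on the higher side and 9.89% on the lower, although the lower tbx18 sham library lay close to the highest cryoinjury library. The promoters of tcf21, wt1b and aldh1a2 had log2 fold changes of -0.14, -0.14 and 0.22, all with overlapping groups. The 11 peaks of tbx18 did not move together. An intronic peak and 2 intergenic peaks, 46172 and 54136 bases from the start, had log2 fold changes of 1.503, 2.06 and 1.78, each with an unadjusted p under 0.05 and no library above 10.1 CPM, and the gene's summed value was -0.14.

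**Figure D4:**
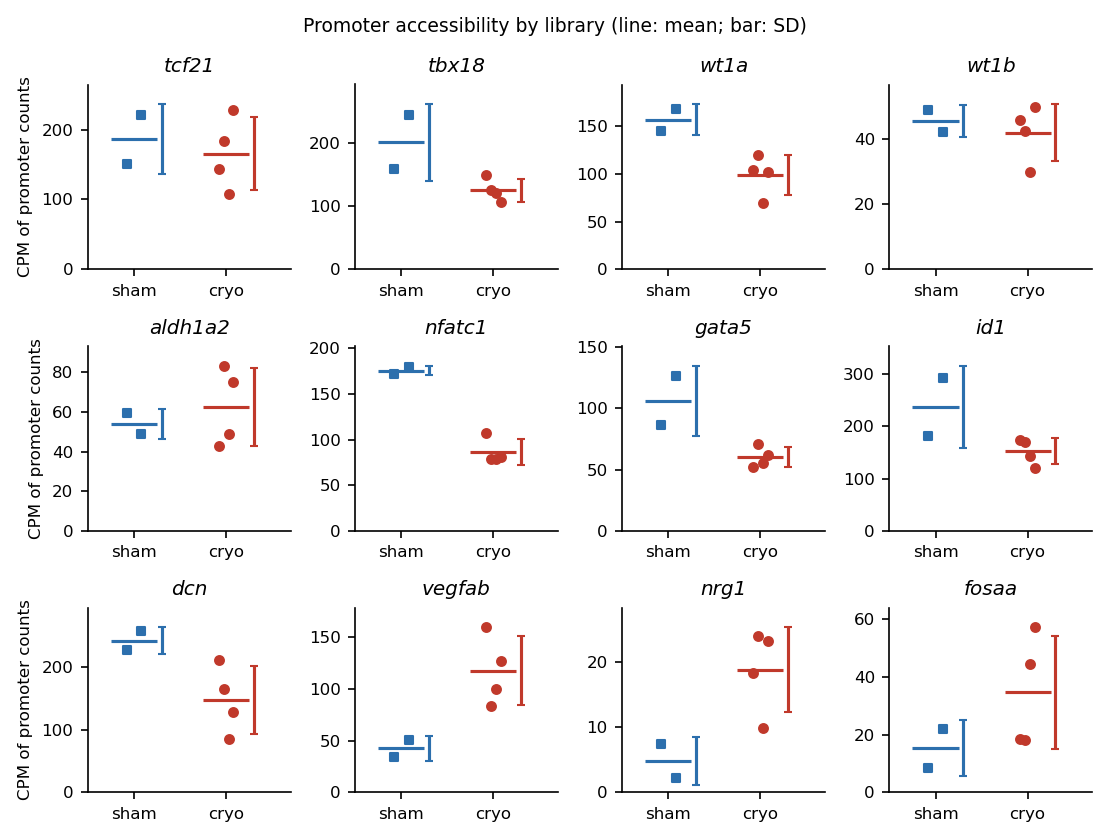
Promoter accessibility of 12 genes in promoter CPM, from 0, with squares for the 2 sham libraries, circles for the 4 cryoinjury libraries, lines for group means and bars for the SD. The sham values of tbx18, wt1a and nfatc1 lie above every cryoinjury value, those of vegfab and nrg1 below, and those of tcf21, wt1b and aldh1a2 overlap.

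The 19 gene lists held signalling, matrix, cell cycle and cell type genes. They were chosen with earlier results of these data known, so shares within them are a description. Over all lists, 185 promoters were tested and 0 were called by edgeR, while DESeq2 called 1, vegfab. At an unadjusted p under 0.05, 10 were higher and 19 lower, against 312 (2.67%) and 611 (5.22%) of all 11704 promoters. The median log2 fold change was -0.15, against -0.01 over all promoters. The lowest p on the higher side belonged to vegfab, which encodes a vascular endothelial growth factor. Its 3 promoter peaks together measured 159, 83.3, 99.3 and 127 promoter CPM after cryoinjury and 34.0 and 50.9 after sham surgery. All 4 cryoinjury values exceeded both sham values (log2 fold change 1.48, SE 0.33, edgeR adjusted p = 0.138, DESeq2 adjusted p = 0.0493). Over all 18 alternatives the adjusted p ran from 0.0493 to 0.646. The sum over all 7 peaks of vegfab gave 1.07 (SE 0.28, adjusted p = 0.459). In adult RNA the gene's log2 fold change was -1.86 (unadjusted p = 0.0265). The promoter of nrg1, the gene of a growth factor for heart muscle, measured 18.4, 24.0, 9.93 and 23.4 against 7.43 and 2.21 (log2 fold change 1.77, adjusted p = 0.527).

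The lowest p on the lower side belonged to nfatc1, a calcium-regulated factor of endocardium and endothelium. Its promoter measured 107, 79.0, 78.5 and 80.6 promoter CPM after cryoinjury and 172 and 179 after sham surgery. The groups were far apart relative to their spread (log2 fold change -1.05, SE 0.26, edgeR adjusted p = 0.210). The 7 tested promoters of the endothelial list, to which nfatc1 belongs, had a median of 0.70 and 5 positive values, with erg, an ETS factor (1.53), and egfl7, a secreted endothelial factor (1.28), higher at an unadjusted p under 0.05. Other promoters lower at an unadjusted p under 0.05 included dcn, a matrix proteoglycan (-0.76), col1a2, a fibrillar collagen chain (-0.66), gata5, a cardiac GATA factor (-0.78), id1, an inhibitor of bHLH factors (-0.64), snai1b, a Snail factor (-1.02), cebpb, a C/EBP factor of injury responses (-0.65), and tgfb2, a TGF-beta ligand (-0.79). All 7 had edgeR adjusted p-values from 0.403 to 0.515. In none of them did the treatments overlap, which held for 9.89% of all promoters on the lower side, and these 7 were picked for low p. The RNA of col1a2 had a log2 fold change of 1.19 (unadjusted p = 0.0276), the opposite sign.

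By list, the 101 peaks of the paracrine factors, secreted signals and their receptors, had a median log2 fold change of 0.17. At p under 0.05 without adjustment, 7 were higher (6.93%) and 1 lower (0.990%), against 3.25% and 3.44% of all peaks. None was called by edgeR over all libraries, while DESeq2 called 1 ptn peak and the edgeR fit of adult libraries alone both peaks of the ptn pair. The 7 higher peaks include this adjacent pair, already described as an extreme of the comparison, so the share is a description. By summed peaks, ptn (1.19), vegfab (1.07) and igf1, an insulin-like growth factor gene (0.88), were higher at that level, and pdgfra, a platelet-derived growth factor receptor gene (-0.61), was lower, of 19 genes tested. The 80 peaks of the injury cytokine list had a median of 0.10 (3 higher, 2 lower). The 72 peaks of the BMP and Id list had 0.10 (2 higher, 4 lower). The TGF-beta list lay at -0.17 over 138 peaks, yet with 7 higher and 6 lower at that level. The sign of these 4 medians held under all 18 alternatives, but their size rested on single libraries except for the paracrine list. The TGF-beta median was -0.094 without the first cryoinjury library, -0.096 without the third and -0.043 without the second sham library. The injury cytokine median was 0.025 without the first sham library and 0.18 without the second. The BMP and Id median was 0.053 without the fourth cryoinjury library and 0.20 without the first sham library. The retinoic acid list lay at -0.05, the Hippo list at -0.01 and the list of cardiac transcription factors at 0.05. Among retinoic acid genes, the sums of cyp26a1, which breaks retinoic acid down, and crabp2a, which binds it, had log2 fold changes of 0.87 and 1.11, and those of rbp4, a retinol carrier, -0.67.

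Cell cycle genes had the lowest median of the lists, -0.29 over 33 peaks. At p under 0.05 without adjustment, 0 of these peaks were higher and 2 lower, against 3.25% and 3.44% of all peaks, and 0 were called by edgeR or DESeq2. Without the second sham library the median was -0.18. By summed peaks, 2 of 22 genes had a positive log2 fold change, against 11563 of all 21976 genes. The sums of rrm2, a subunit of ribonucleotide reductase, were 39.2, 43.8, 51.8 and 35.6 CPM after cryoinjury and 58.0 and 82.8 CPM after sham surgery (log2 fold change -0.71, SE 0.23, edgeR adjusted p = 0.587). Its RNA went the other way, with a log2 fold change of 2.95. A second gene ID named rrm2 had an ATAC log2 fold change of -0.62. Among other genes of the list, cdk1 and top2a were called higher in RNA (log2 fold changes 6.01 and 3.74, edgeR adjusted p = 0.0238 and 0.0417). Their ATAC sums stood at -0.19 and -0.25, each with an unadjusted p over 0.05. RNA of the remaining list genes is not given here. Most cell cycle peaks are promoters, and the median of all 12756 promoter peaks was -0.11. Removing the trend of fold change on abundance moved the cell cycle median to -0.13 and the promoter median to 0.02. The part of promoters and of abundance in the cell cycle median was not tested.

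The Runx and C/EBP list lay at -0.23 over 57 peaks (0 higher, 3 lower) and the metalloproteinase list, of matrix-degrading enzymes and their inhibitors, at -0.21 over 29 peaks (0 higher, 1 lower). Of all peaks, 3.25% were higher and 3.44% lower at that level. The signs of both list medians held under all 18 alternatives. The metalloproteinase median was -0.11 without the second sham library, and the Runx and C/EBP median -0.11 with the abundance trend removed. The matrix list lay at -0.03 over 141 peaks (5 higher, 8 lower). By summed peaks, sparc, a collagen-binding matrix protein gene, measured 68.7, 54.7, 40.4 and 53.9 CPM after cryoinjury and 97.6 and 71.6 CPM after sham surgery. The groups did not overlap (log2 fold change -0.67, SE 0.22, edgeR adjusted p = 0.594). The EMT list, of regulators of epithelial to mesenchymal transition, lay at -0.09 over 82 peaks. The AP-1 list, of the early injury-response factors fos, jun and atf3, lay at -0.02 over 67 peaks (3 higher, 2 lower). Of its 11 genes, fosaa alone had an unadjusted p under 0.05 by summed peaks, with sums of 11.6, 12.7, 17.9 and 25.1 CPM against 7.998 CPM and 9.82 CPM (log2 fold change 0.99, adjusted p = 0.698).

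**Figure D5:**
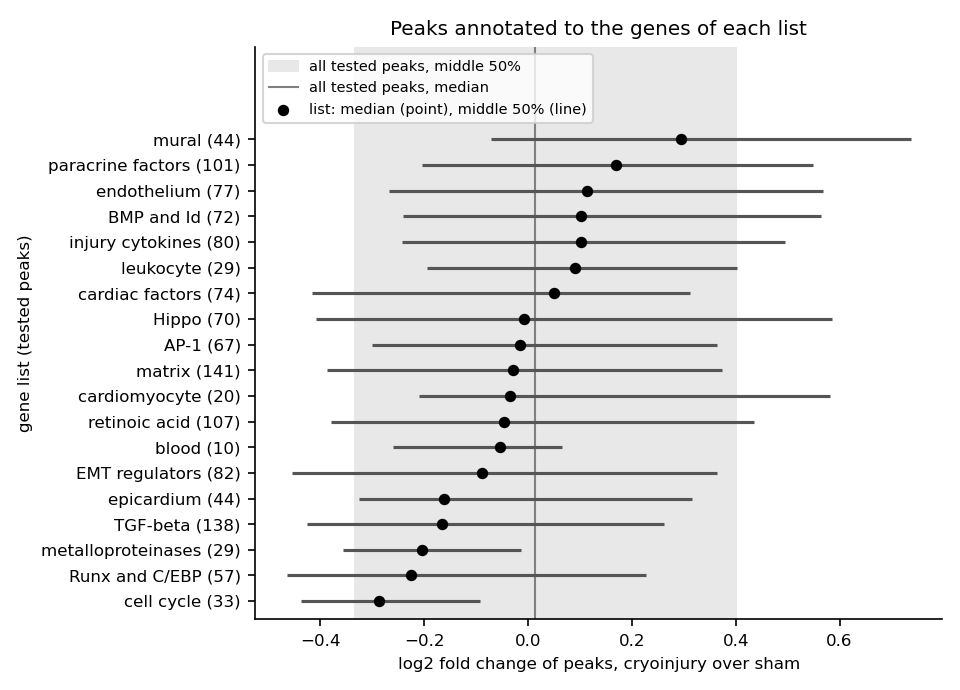
Median (point) and middle 50% (line) of the log2 fold changes of cryoinjury over sham for the tested peaks of each gene list, with the number of peaks in brackets, against the median and middle 50% of all tested peaks (grey). The medians run from -0.29 for cell cycle genes to 0.30 for mural genes, within the middle 50% of all peaks.

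Lists of other cell types that a sort could hold were examined in the same libraries. The mural list, of pericyte and smooth muscle genes, had the highest median, 0.30 over 44 peaks, with 6 higher (13.6%) and 1 lower (2.27%) at p under 0.05 without adjustment, against 3.25% and 3.44% of all peaks, and 0 called by edgeR or DESeq2. Without the fourth cryoinjury library the median was 0.16. The 4 tested promoters of the list had a median of -0.17, with 1 positive value. Its summed level was 468, 470.1, 501.2 and 497 CPM after cryoinjury and 448 and 413 CPM after sham surgery, without overlap. Within it, the sums of cspg4, the pericyte proteoglycan NG2, were 136, 117, 138 and 155 CPM against 108 CPM and 91.2 CPM (log2 fold change 0.45, SE 0.22, edgeR adjusted p = 0.766). The sums of abcc9, a potassium channel subunit gene, had a log2 fold change of 0.90 (adjusted p = 0.728). The smooth muscle genes acta2 and tagln stood at 0.00 and -0.15, and pdgfrb had no annotated peak.

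The leukocyte list had a median of 0.09 over 29 peaks (1 higher, 1 lower, against 3.25% and 3.44% of all peaks). Its summed levels overlapped, 322 CPM to 466 CPM after cryoinjury and 344 CPM to 381 CPM after sham surgery. The cardiomyocyte list had -0.03 over 20 peaks, summing to 152 CPM to 187 CPM after cryoinjury and 196 CPM and 200 CPM after sham surgery, so that it was lower without overlap. The endothelial list had 0.11 over 77 peaks with a summed level of 714 CPM to 792 CPM against 814 CPM and 828 CPM, so its median and its sum differed in sign. The blood list had -0.05 over 10 peaks, summing to 42.1 CPM to 81.2 CPM against 55.3 CPM and 61.6 CPM, while its 4 tested promoters had a median of 0.78. Of the defining leukocyte genes, mpeg1.1, mpx and lyz had no annotated peak, and vmhc and nppb of the cardiomyocyte list had none either. The medians of the epicardial, leukocyte, cardiomyocyte, endothelial and blood lists, and of the AP-1, EMT, matrix, retinoic acid, Hippo and cardiac factor lists, changed sign under 1 to 12 of the 18 alternatives each. The part of these lists in the larval class difference was not tested. The summed level of the epicardial list itself was 1082 CPM to 1606 CPM after cryoinjury and 1342 CPM and 1817 CPM after sham surgery, with overlap. The median of its peaks was -0.16, and it was 0.036 without the second sham library.

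By annotated feature, accessibility differed little. The 12756 promoter peaks had a median log2 fold change of -0.11 (-0.17 without the third cryoinjury library, -0.059 without the fourth and -0.072 without the second sham library). At an unadjusted p under 0.05, 541 were lower (4.24%) and 165 higher (1.29%), against 3.44% and 3.25% of all peaks. Intronic and intergenic peaks had medians of 0.06 and 0.07, and the 6405 peaks beyond 50 kb from a start 0.11. Promoter peaks took 28.7%, 30.9%, 33.2% and 28.1% of counts after cryoinjury and 32.4% and 32.7% after sham surgery. The difference in means was -2.34 percentage points, and the groups overlapped (exact permutation test, two-sided p = 0.400). Replicates were closer at promoters than in introns, with a median within-group SD of log2 CPM of 0.399 against 0.513. The part of count level in this was not tested.

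A difference in base composition was not established, and the exact test of shares could not establish one, as its smallest p is 0.133. The 10 named higher peaks had GC fractions from 0.355 (hdac4) to 0.439 (slmapa). The 10 named lower peaks had GC fractions from 0.401 (ms4a17c.1) to 0.493 (tmem184bb). These peaks were chosen as extremes, so the ranges are a description. Of 5 classes of peaks by GC content, the lowest had a median log2 fold change of 0.08 and the highest -0.09. The lowest class took 20.5% ± 0.51 (SD, n = 4) of counts after cryoinjury and 18.6% ± 0.21 (n = 2) after sham surgery, without overlap (two-sided exact permutation p = 0.133, adjusted 0.545), and the other 4 classes overlapped. After removing each library's GC trend, 5 peaks were called in place of 1, and the part of base composition in the other results was not tested beyond that alternative. Along the genome, chromosome medians ran from -0.06 to 0.09. The 1 Mb window with the lowest p began at 1 Mb of chromosome 3 and held 38 peaks, with 757, 755, 721 and 618 CPM after cryoinjury against 882 CPM and 1118 CPM (log2 fold change -0.49, edgeR adjusted p = 0.453). On the higher side it began at 6 Mb of chromosome 20 (log2 fold change 0.30, adjusted p = 0.453).

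Genes whose RNA changed after cryoinjury were looked up in the accessibility data. In adult RNA, 47 of 20745 genes rose (0.227%) and 19 fell (0.0916%) by edgeR at an adjusted p under 0.05. Of the 47, 34 had tested peaks, with a median ATAC log2 fold change of -0.14 by summed peaks. At an unadjusted p under 0.05, 0 of them were higher and 2 lower, against 2.95% and 3.49% of all genes. The 2 lower ones were ska3, of the mitotic spindle (-1.25), and itgav, an integrin subunit gene (-0.42). Their RNA rose by 7.96 and 5.31 on the log2 scale. RNA counts per library are not given here, so whether such large values rest on few counts in a group is not shown. Of the 19 genes that fell in RNA, 12 had tested peaks, with a median of -0.12, and at p under 0.05 without adjustment 1 was higher and 1 lower. The lower one, svbp, which encodes a vasohibin-binding protein, measured 33.0, 24.1, 27.7 and 32.8 CPM in ATAC after cryoinjury and 52.3 and 45.6 CPM after sham surgery (log2 fold change -0.75, SE 0.32, edgeR adjusted p = 0.714), and its RNA fell by 3.30 on the log2 scale. The higher one, ndp, which encodes the secreted signal norrin, measured 16.9, 16.6, 12.7 and 13.9 CPM in ATAC after cryoinjury and 5.998 and 2.11 CPM after sham surgery (log2 fold change 1.73, SE 0.50, edgeR adjusted p = 0.525), against the direction of its RNA. ATAC and RNA libraries came from differently purified material, sorted cells and pulled-down nuclei, so assay and purification cannot be told apart.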

How the data were processed

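ATAC-seq reads were counted by the authors in 1 set of peaks shared by all 14 ATAC libraries, and whole-number counts were deposited. Per the submitters' processing notes, Bowtie 1.2.3, SAMtools 1.10, MACS2 2.2.7.1, HOMER, DiffBind 3.0.13, STAR 2.7.3a, featureCounts and edgeR 3.32.1 were used with build GRCz10. The lowest deposited count was 1, which stands for 1 read or none. The deposited FPKM rescale the counts without regard to width and were not used further. GC content was deposited as a fraction. A peak's feature, nearest gene and distance to its start were taken from the authors' deposited annotation, which does not show that a peak regulates that gene. The adult RNA values came from the authors' deposited counts per gene.

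Counts were tested with the quasi-likelihood functions of edgeR 4.0.16 under R 4.3.3 (glmQLFit, glmQLFTest, TMM, filterByExpr by group with a minimum count of 10) on all 14 ATAC libraries, with group means, for peaks, summed genes, summed promoters and 1 Mb windows. The Benjamini-Hochberg adjustment ran over all features tested, and an adjusted p under 0.05 counted as called. SE is the absolute log2 fold change over the square root of F. RNA counts were tested in the same way on all 11 RNA libraries, larval ones included. Shares were compared with the exact permutation test in scipy 1.17.1. Peaks were named by lowest p among those without overlap, with a mean of 3 CPM or more in the higher group and a proper gene name (10 a direction, 1 a gene, beside every called feature). For summed genes 5 a direction were named in the same way, with 10 CPM or more. The lists held 269 genes, of which 234 were tested. Members and lists were chosen with earlier results of these data known. Alternatives were DESeq2 1.42.0 (size factors and Wald test), total-count scaling, other filters, adult libraries alone, halved counts, GC and abundance trends removed, a replicate block and leaving out each library. Scripts were tested on simulated data. Intervals and floors reflect counting error alone and take each count as an independent read. Reads copied by PCR count repeatedly, so the intervals may be too narrow. Even counts were 1.07 to 1.13 times as frequent as odd ones in the 4 cryoinjury libraries and the first sham library. In the second sham library they were 1.41 times as frequent. Whether part of the reads were counted in pairs was not tested. No sequence is shown.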

Additional observations from a re-analysis of the deposited data

Results flagged for a closer look

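In groups of 4 libraries, a value whose gap to the next was unusually wide for the group's range was marked, which chance does in about 1 of 20 groups, and only the cryoinjury group was large enough. The first cryoinjury library was the high one for the promoter of nfatc1 (107 promoter CPM), the summed peaks of epb41b (8.03 CPM), the znf346 peak (17.6 CPM), the gfi1ab peak (14.996 CPM) and the summed TGF-beta list (1881 CPM). The third was the low one for the summed peaks of tbx18 (98.7 CPM) and for the promoter of amotl2b (78.5 promoter CPM). The fourth was the low one for the summed peaks of fosl2 (81.2 CPM) and of smad2 (113 CPM), and the high one for the share of counts in class 4 of 5 by GC content (19.7%). The direction of each of these differences between treatments was the same without the library concerned.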

How the results depend on the processing

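Counts of called features depended on the test. The direction of the peaks and genes named by rule was largely set by choosing features without overlap, so its steadiness tests nothing. Against 1 called peak, 1 gene and 2 promoters, DESeq2's Wald test called 10, 4 and 6. The fit of adult libraries alone called 10 peaks and 3 genes, and with the GC trend removed (chosen after seeing the data) 9 and 2. Halved counts gave 3 peaks, the GC trend removed 5 peaks and the abundance trend removed 1 promoter. Leaving out single libraries gave 1 to 6 peaks (6 without the first sham library, 2 without the third cryoinjury library), 1 to 2 genes (2 without the first sham library) and 0 to 11 promoters (11 without the first cryoinjury library, 1 without the second, 0 without the first sham library, 1 without the second).

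For the replicate numbers shared by both treatments, the correlation of deviations was -0.01 for number 1 and 0.05 for number 2. The deviations of 2 sham libraries mirror each other, so these values cannot decide whether libraries were paired. Replicate numbers 3 and 4 occurred only after cryoinjury, so with the block those 2 libraries had no weight in the contrast. The block fit thus compared fewer libraries than the main fit. With the replicate block, 0 peaks, 0 genes and 2 promoters were called, and the same with the block and the GC trend removed. The CR450686.2 peak then had an adjusted p of 0.105 and 0.0744. The avd peak had 0.829 and 0.743. The median of the promoters more open in larval non-epicardium turned to -0.017 and -0.0047, and the paracrine median with both was 0.061.

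With total-count scaling, the split without adjustment was 2665 peaks higher against 1452 lower, in place of 2012 and 2127, as the median of all peaks moved to 0.11. Without the second sham library, 1206 were lower.

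Of the named features, summed log2 fold changes turned sign for slc4a1a with the block (0.287, and 0.293 with the GC trend removed) and for sav1 with both (0.00625). Over single libraries left out, they ranged from -0.44 to 0.14 for tcf21, -0.33 to 0.053 for tbx18, -0.010 to 0.18 for wt1b, -0.73 to 0.21 for gata4, -0.39 to 0.023 for slc4a1a and -0.0045 to 0.64 for lcp1. Promoter values ranged from -0.41 to 0.15 for tcf21 and from -0.25 to 0.013 for wt1b. The causes were not tested. With 2 sham libraries, 1 library decides many values, and at this depth low peaks rest on few counts.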
